A study of Mus musculus with 7 samples.

Results

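The cytochrome P450 and flavin monooxygenase genes of 3T3-L1 fat cells were compared between cultures that differentiated with and without an inhibitor of stearoyl-CoA desaturase (SCD), the enzyme that turns saturated into monounsaturated fatty acids. A gene was taken as a member where its array annotation held exactly 1 symbol, and that symbol began with Cyp or Fmo followed by a digit. Cyp51, an enzyme of cholesterol synthesis, was left out of the members. The rule used names and mean levels over all 7 arrays and no difference between the groups. It gave 92 genes of the 18820 measured, of which 87 are P450 genes and 5 are flavin monooxygenase genes. Of the members, 3 are annotated as pseudogenes in RefSeq and stayed in all counts. Where a gene had several rows, as Cyp1b1 and Cyp21a1 did, the one with the highest overall mean was used.

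3T3-L1 is an established clonal mouse line of fibroblast-like cells that turn into fat cells under hormones, so every array describes 1 line. All cultures received human insulin throughout, joined in the first 2 days by dexamethasone and isobutylmethylxanthine. Through the whole period the DMSO group (4 arrays) received solvent and the inhibitor group (3 arrays) received 1 µM of a commercial SCD inhibitor, whose name the labels do not give. Total RNA was taken at day 7, 100 ng of it was labelled, and each sample went on its own Affymetrix array. The labels call the cells pre-adipocytes and the series design calls them adipocytes. The labels do not say whether replicates were separate cultures, so the p-values rest on the spread among these samples alone, and that spread may be technical.

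Cytochrome P450 enzymes hold a haem group and use molecular oxygen and electrons from NADPH to put a hydroxyl or epoxide group on fatty acids, sterols, retinoids, steroids and foreign chemicals. Flavin monooxygenases do a related reaction with a flavin in place of haem and act mainly on nitrogen and sulphur atoms. Most family members are known from the liver. Fat cells are known to use some of them on fatty acids, retinoids and steroids.

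Values are log2 levels, so a difference of 1 is a 2-fold change, and all differences are inhibitor minus DMSO with their standard error (SE). A gene was called where limma's Benjamini-Hochberg adjusted p, taken over all 18820 genes, was under 0.05. Probes differ in brightness, so the level of one gene is not set against that of another as an amount of RNA. Only 12 of the 92 members had a mean above 5.59, the median over all genes, and 80 lay at or below it. A level below 4 was found for 54 members (58.7%) and for 30.3% of all genes. Because RNA came from whole cultures, fewer cells that express a gene and less RNA per cell cannot be told apart.

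Markers of fat cells were bright in both groups. The summed level of 11 adipocyte markers spanned 15.45 to 15.48 over the DMSO arrays and 15.43 to 15.49 over the inhibitor arrays, with 1 called higher and 1 lower. The summed level of 9 pre-adipocyte markers spanned 11.46 to 11.61 with DMSO and 11.94 to 11.98 with inhibitor, with 3 called higher and none lower. Of all genes 8.0% were called. The sums are of unlogged values, so the brightest markers weigh most. Differences of single pre-adipocyte markers ran from -0.09 to 0.89, with a median of 0.04. Pdgfra, a receptor of fibroblast-like precursor cells chosen here after its value was seen, rose from 8.97 to 9.86. The called adipocyte markers, also named after their values were seen, were Plin4 (11.13 to 11.43) and Slc2a4 (10.48 to 9.68). The part of these shifts in the results was not tested. No gene of 7 hepatocyte, 7 macrophage or 6 endothelial markers passed in limma. At an unadjusted p under 0.05 these lists held 0, 1 and 0 genes, and the mean level of the hepatocyte markers was 3.8 to 3.88 on every array.

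Of the 92 members, 8 were called (8.7%), beside 8.0% of all genes. With the inhibitor 7 members fell (7.61%, beside 4.37% of all genes) and 1 rose (1.09%, beside 3.62%). The values of the groups did not overlap for 16 members (17.4%), beside 17.3% of all genes. The share called in either direction and the share without overlap lie near those of all genes, while the share that fell was above and the share that rose below those of all genes, differences that were not tested. The median difference was -0.013 over the members and -0.0037 over all genes. A fall of more than 1 on the log2 scale was found for 3 members, Fmo1, Cyp2ab1 and Cyp2b10 (3.26%), beside 0.388% of all genes. Over all genes 682 were higher and 823 lower, which is 45.3% higher, and 55.7% were higher when each array was centred on its median (1296 against 1030).

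Calls were more frequent among the brighter genes. Of the 12 members above the median level 4 were called (33.3%), beside 14.9% of all genes above it, and all 4 fell. At or below it 4 of 80 members were called (5.0%), beside 1.09% of all genes there, 3 lower and 1 higher. None of the 12 brighter members was called higher by limma, though 3 were higher at an unadjusted p under 0.05. Cyp2ab1, among the 4 that fell, was above the median level only through its DMSO mean of 6.64. Its inhibitor mean of 4.99 lay below 5.59, so for this gene the level bound and the fall are not independent.

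**Figure D1:**
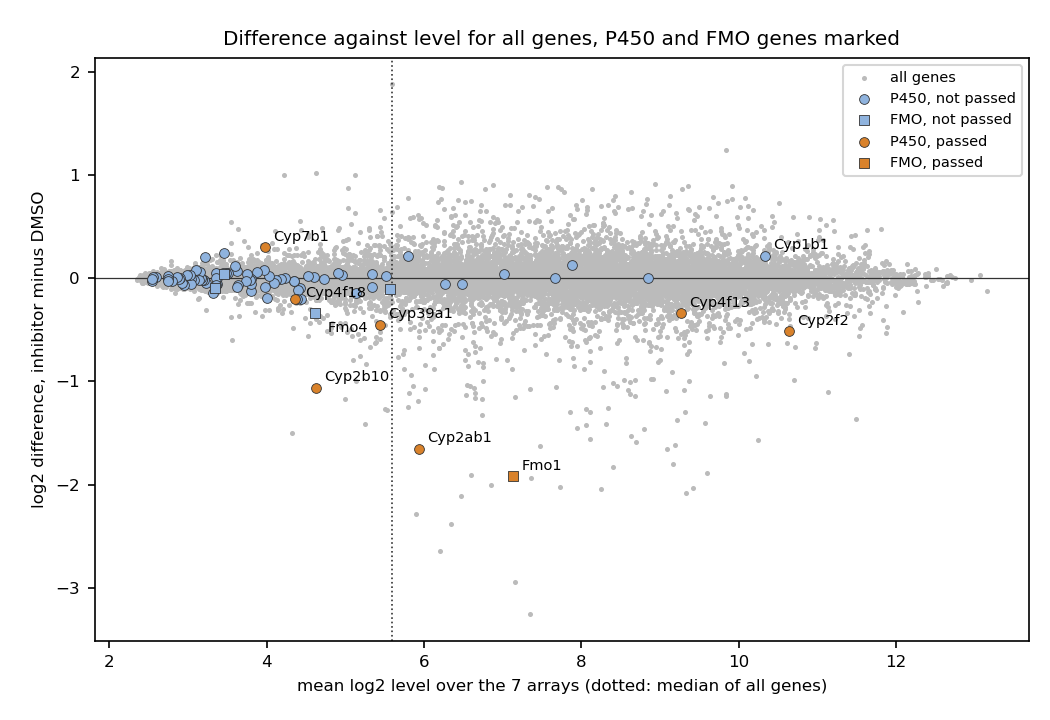
Log2 difference, inhibitor minus DMSO, against the mean log2 level over the 7 arrays, with all genes in grey, members in blue or, where called, orange, and the dotted line at the median level of all genes. Fmo1 (-1.92) and Cyp2ab1 (-1.65) lie far below the other members above that line, and most members sit at dim levels with differences near 0.

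Fmo1 (transcript cluster 10359571), which oxygenates nitrogen and sulphur atoms of drugs and of small natural molecules, showed the largest difference of any member. Its level was 7.99, 7.92, 7.90 and 7.99 on the DMSO arrays and 5.89, 6.25 and 5.96 on the inhibitor arrays. Every inhibitor array lay more than 1 log2 unit below every DMSO array. The mean fell from 7.95 ± 0.045 (SD, n = 4) to 6.03 ± 0.19 (SD, n = 3). The difference was -1.92 (SE 0.084, 95% interval -2.12 to -1.72), 3.78-fold lower, with an adjusted p of 6.74e-05 in limma. It ranked at place 13 by decrease among all 18820 genes. The other 4 flavin monooxygenase genes were not called. Fmo5 was 5.36, 5.71, 5.85 and 5.54 with DMSO and 5.46, 5.54 and 5.54 with inhibitor, values that overlap, for a difference of -0.10 (SE 0.11). Fmo4, named after its value was seen, was 4.62, 4.74, 4.70 and 4.98 with DMSO and 4.32, 4.49 and 4.45 with inhibitor. Its groups did not overlap, but the difference of -0.34 (SE 0.088) missed the threshold (adjusted p = 0.0723). In alternative fits Fmo4 was called lower with quantile normalization and with arrays centred on their median. It was also called lower with the dimmest 25% of genes dropped and with a replicate block. Fmo2 (-0.09) and Fmo9 (0.04) lay between 3.17 and 3.54 on every array.

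**Figure D2:**
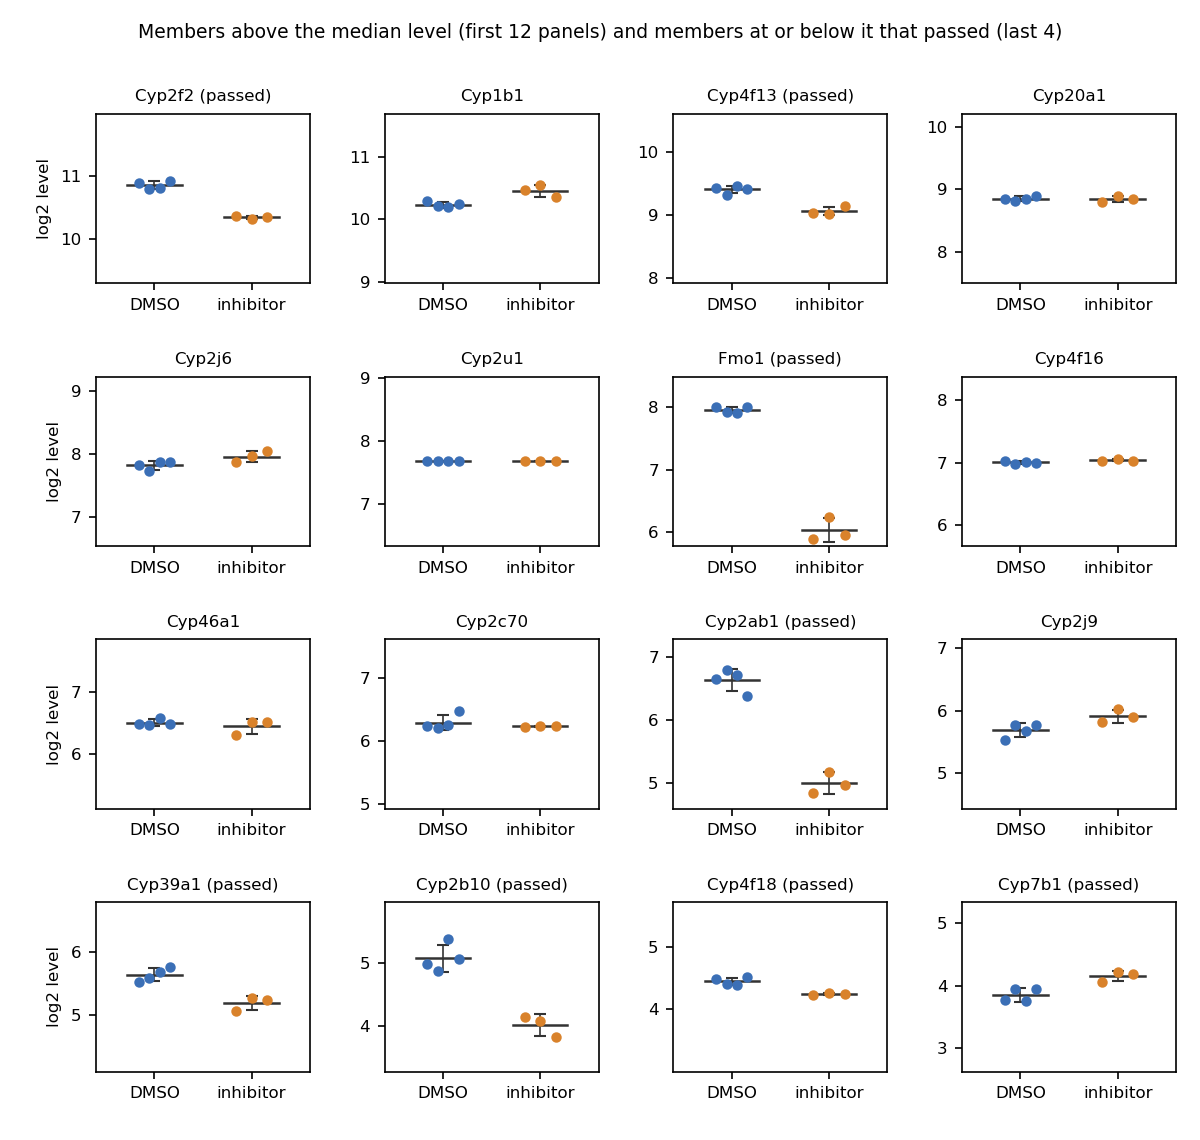
Log2 level of 16 members on each array, DMSO and inhibitor side by side, where points are arrays, bars are means, whiskers are SD, and each panel spans the same height in log2 units. The groups are far apart for Fmo1, Cyp2ab1 and Cyp2b10, closer but separate for Cyp2f2, and overlapping for genes such as Cyp2j6.

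Cyp2r1 was counted with the sterol, steroid and vitamin D genes below. The rest of the CYP2 family, whose enzymes act on foreign chemicals and on fatty acids, made up 45 of the members. It held 3 called genes, all lower, beside 8.0% of all genes called and 4.37% called lower. Its median difference was -0.018. Cyp2ab1 (transcript cluster 10438468) was 6.66, 6.80, 6.71 and 6.39 on the DMSO arrays and 4.83, 5.18 and 4.97 on the inhibitor arrays. All inhibitor values lay below all DMSO values. The mean fell from 6.64 ± 0.18 (SD, n = 4) to 4.99 ± 0.17 (SD, n = 3), a difference of -1.65 (SE 0.12, 95% interval -1.93 to -1.37; 3.14-fold lower, adjusted p = 0.000466).

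Cyp2f2 (transcript cluster 10551293) is known from the mouse lung, where it activates naphthalene to a toxic product. It was 10.90, 10.80, 10.82 and 10.93 on the DMSO arrays and 10.37, 10.32 and 10.35 on the inhibitor arrays. Each group was tight and the groups were well apart. The difference was -0.51 (SE 0.036, 95% interval -0.60 to -0.43), 1.43-fold lower, with an adjusted p of 0.000465. Cyp2b10 (transcript cluster 10551197), the classic phenobarbital-induced P450 of mouse liver, was 4.99, 4.87, 5.38 and 5.06 with DMSO and 4.14, 4.08 and 3.82 with inhibitor. Its level was below the median of all genes in both groups. The difference was -1.06 (SE 0.13, 2.09-fold lower, adjusted p = 0.00487). The call was lost when DMSO array 1 and inhibitor array 1 were left out together (adjusted p = 0.0612).

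The 250 bases before the start of 4 of the 5 called members with a window in the RefSeq table for GRCm38.p6 are shown because they carry the sequence nearest to the transcripts that changed. Capitals mark matches to the motifs searched on both strands: TATAAA, a core promoter element; AGGTCA, the half-site of nuclear receptors; GCGTG, the core of the xenobiotic response element; TTGCNNAA for C/EBP; CACGTG, an E-box; CCAAT; and TGATGNAA for ATF4 with C/EBP. A match of TTGCNNAA can share bases with one of TGATGNAA. The windows are chr16:20325405-20325654 on the minus strand for Cyp2ab1, chr7:27119705-27119954 on the plus strand for Cyp2f2, chr7:25897408-25897657 on the plus strand for Cyp2b10 and chr17:32947362-32947611 on the minus strand for Cyp4f13, each written 5′ to 3′ along the gene.
Cyp2ab1: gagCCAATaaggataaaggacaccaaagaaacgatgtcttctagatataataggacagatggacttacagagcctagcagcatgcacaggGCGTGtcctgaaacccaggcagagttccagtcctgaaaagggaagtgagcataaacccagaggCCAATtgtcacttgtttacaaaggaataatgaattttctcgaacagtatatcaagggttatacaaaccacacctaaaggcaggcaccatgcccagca
Cyp2f2: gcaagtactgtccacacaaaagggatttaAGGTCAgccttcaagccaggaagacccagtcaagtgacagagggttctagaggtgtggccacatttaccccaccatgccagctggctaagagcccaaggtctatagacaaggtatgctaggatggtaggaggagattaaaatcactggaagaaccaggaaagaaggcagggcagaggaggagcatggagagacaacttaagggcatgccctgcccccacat
Cyp2b10: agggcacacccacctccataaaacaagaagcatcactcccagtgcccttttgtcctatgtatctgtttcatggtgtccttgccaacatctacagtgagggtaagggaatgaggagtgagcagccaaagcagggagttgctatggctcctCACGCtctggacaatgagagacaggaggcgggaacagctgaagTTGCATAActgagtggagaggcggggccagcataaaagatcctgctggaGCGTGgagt
Cyp4f13: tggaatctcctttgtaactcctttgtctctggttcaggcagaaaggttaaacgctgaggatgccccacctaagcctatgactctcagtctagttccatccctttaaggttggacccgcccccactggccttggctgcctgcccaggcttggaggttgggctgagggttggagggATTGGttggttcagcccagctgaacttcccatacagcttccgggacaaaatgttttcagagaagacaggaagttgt

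Cyp2ab1 held CCAAT at positions -247 and -97 and GCGTG at -160, counted as the first base of the match relative to the start. Cyp2f2 held AGGTCA at -221. Cyp2b10 held TTGCNNAA at -58 and GCGTG at -9 and, on the other strand, at -101. Cyp4f13 held CCAAT on the other strand at -76. No motif was found in all 4 windows. The window of Cyp4f18, which is not shown, held CCAAT on the other strand at -113 and -48. Fmo1, Cyp39a1 and Cyp7b1 had no window. Among 68 member windows TATAAA was in 38.2% and AGGTCA in 22.1%, beside 12.4% and 14% of all 32851 windows of the same length. For members only the first window of a gene was used, while the set of all windows was not reduced in this way. GCGTG was in 20.6% of member windows and 28.2% of all, TTGCNNAA in 19.1% and 9.56%, CCAAT in 44.1% and 33.8%, CACGTG in 1.47% and 6.02%, and TGATGNAA in 2.94% and 3.45%. Many members are near copies of one another and share promoter sequence. A match is a description of letters and says nothing of binding.

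Of the CYP2 genes above the median level that were not called, Cyp2j6 and Cyp2j9 belong to a family that makes epoxides of arachidonic acid. Cyp2j9 was 5.53, 5.77, 5.68 and 5.77 with DMSO and 5.81, 6.02 and 5.90 with inhibitor, with no overlap. Its difference of 0.22 (SE 0.075) missed the threshold in limma (adjusted p = 0.147). Cyp2j6 was 7.82, 7.72, 7.87 and 7.87 with DMSO and 7.87, 7.96 and 8.04 with inhibitor, which overlap, at 0.13 (SE 0.052, adjusted p = 0.196). Cyp2u1, a hydroxylase of long-chain fatty acids, was 7.67 on every array. Cyp2c70, known in mouse liver for making muricholic acids, was 6.24, 6.21, 6.25 and 6.47 with DMSO and 6.22, 6.24 and 6.24 with inhibitor, at -0.06 (SE 0.063). Cyp2d40, just below the median level at 5.52, had a difference of 0.02 (SE 0.19, 95% interval -0.45 to 0.48), a wide interval set by DMSO values that ran from 5.11 to 5.97. The members just above the median level were Cyp2j9 (5.79), Cyp2ab1 (5.93) and Cyp2c70 (6.27), and those just below were Fmo5 (5.57), Cyp2d40 (5.52) and Cyp39a1 (5.44).

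The CYP4 family, whose enzymes add a hydroxyl group to the far end of fatty acids and of leukotrienes, held 15 members with differences between -0.34 and 0.08. Cyp4f13 (transcript cluster 10449955) was 9.43, 9.32, 9.47 and 9.41 on the DMSO arrays and 9.04, 9.01 and 9.14 on the inhibitor arrays, so every inhibitor array was lower. The difference was -0.34 (SE 0.044, 1.27-fold lower, adjusted p = 0.00547). It missed the threshold when DMSO array 1 and inhibitor array 1 were left out together (adjusted p = 0.0866). Cyp4f18 (transcript cluster 10579636), known for inactivating leukotriene B4 in neutrophils, was 4.48, 4.40, 4.39 and 4.51 with DMSO and 4.23, 4.26 and 4.24 with inhibitor. It fell by 0.20 (SE 0.034, adjusted p = 0.0145). That call was lost without inhibitor array 1, 2 or 3 (adjusted p = 0.0529, 0.0521 and 0.0615). Cyp4f16, the other bright gene of the family, was 7.03, 6.98, 7.01 and 6.99 with DMSO and 7.03, 7.06 and 7.03 with inhibitor, at 0.04 (SE 0.021, adjusted p = 0.345). The row of Cyp4f40 was 4.23 on every array, so its difference of 0.00 comes from a row without variation. The row of another gene, Nppb, had the same values, and whether the Cyp4f40 row reads that gene alone is not known.

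Among 14 P450 genes of sterol, steroid and vitamin D metabolism, 1 fell and 1 rose, beside 4.37% and 3.62% of all genes. The median difference was -0.062. Cyp39a1 (transcript cluster 10445308), which adds a hydroxyl group to brain-type hydroxycholesterol, was 5.52, 5.59, 5.68 and 5.76 with DMSO and 5.06, 5.26 and 5.24 with inhibitor. Both groups were close to the median level of all genes and did not overlap. The difference was -0.45 (SE 0.073, 1.37-fold lower, adjusted p = 0.013), and without DMSO array 3 the adjusted p was 0.05. Cyp7b1 (transcript cluster 10497381), an oxysterol hydroxylase, was 3.77, 3.94, 3.75 and 3.94 with DMSO and 4.06, 4.22 and 4.18 with inhibitor, levels among the dimmer genes. It rose by 0.30 (SE 0.066, 1.23-fold higher, adjusted p = 0.0398). Every fit that left out 1 array lost this call: the adjusted p was 0.109, 0.0567, 0.101 and 0.0631 without DMSO arrays 1 to 4 and 0.0513, 0.136 and 0.137 without inhibitor arrays 1 to 3. Cyp46a1, the cholesterol hydroxylase of neurons, was 6.49, 6.46, 6.58 and 6.49 with DMSO and 6.31, 6.51 and 6.52 with inhibitor, at -0.06 (SE 0.059). The remaining 11 genes of this group were not called and lay at or below the median level.

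Cyp1b1, which oxidises oestrogens and polycyclic hydrocarbons and is a textbook target of the aryl hydrocarbon receptor, was the CYP1 gene above the median level. It was 10.30, 10.21, 10.19 and 10.24 on the DMSO arrays and 10.46, 10.55 and 10.35 on the inhibitor arrays. The inhibitor values all lay above the DMSO values. The difference of 0.22 (SE 0.052, 95% interval 0.10 to 0.34) missed the threshold narrowly (adjusted p = 0.0508), and it passed without inhibitor array 3 (adjusted p = 0.0299). The other row of Cyp1b1, at a mean of 4.90, differed by 0.11. Cyp1a1 and Cyp1a2, named after their values were seen, were dim (3.37 and 3.44) with differences of 0.00 and 0.05. Cyp20a1, a P450 with no well established substrate, was 8.85, 8.81, 8.85 and 8.90 with DMSO and 8.80, 8.90 and 8.84 with inhibitor, a difference of -0.00 (SE 0.031, 95% interval -0.08 to 0.07). The 3 retinoid hydroxylases of the CYP26 family had levels of 3.8 to 5.34 and differences of -0.01 to 0.04. The 6 CYP3 genes had levels of 2.55 to 3.45 and differences of -0.01 to 0.24.

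The 76 members that were neither called nor above the median level had means of 2.54 to 5.57 and differences of -0.34 to 0.24. Among all 80 members at or below the median level, called ones included, 10 had groups that did not overlap (12.5%), beside 3.79% of all genes there. The 6 of these that were not called were Fmo4, Cyp2d22, Cyp2e1, Cyp27a1, Cyp3a44 and Cyp2c68. Cyp3a44 differed by 0.24 (adjusted p = 0.0602), and Cyp2e1, an ethanol-oxidising enzyme of liver and fat, by -0.20 (adjusted p = 0.0917). Both were called with quantile normalization and with arrays centred on their median. Cyp3a44 was also called with limma-trend and with array weights, and Cyp2e1 without inhibitor array 2. A further 9 rows carried several symbols that included a P450 or flavin monooxygenase gene and were not counted among the members. None of them was called by limma, and the smallest adjusted p among them was 0.148.

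Many of these genes lie in clusters of near neighbours, read here from the order of coding genes in RefSeq (GRCm38.p6). On chromosome 1, Fmo4 (-0.34), Fmo1 (-1.92) and Fmo2 (-0.09) are adjacent, while Fmo9 (0.04) lies farther off, with 39 other genes before it. On chromosome 7, a run of 13 CYP2 genes holds Cyp2b10 (-1.06) and Cyp2f2 (-0.51). Their 10 other measured neighbours in that run had differences of -0.08 to 0.05 and were not called. The run of Cyp4f genes on chromosome 17 holds Cyp4f13 (-0.34), and its 6 other measured members had differences of -0.07 to 0.08. In the Cyp2j run on chromosome 4, Cyp2j6 (0.13) and Cyp2j9 (0.22) are adjacent, beside differences of -0.05 to 0.05 for the other 4 measured genes.

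**Figure D3:**
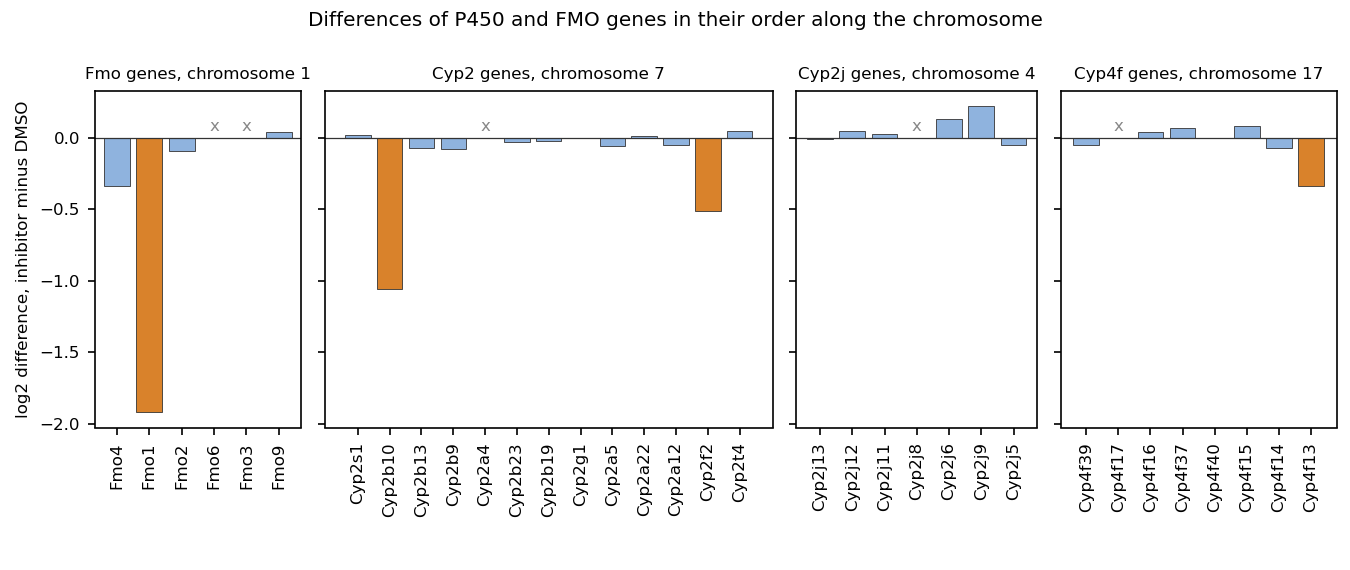
Log2 difference of each gene in 4 clusters, in the order the genes lie along the chromosome, where called genes are orange and an x stands for a gene that is not among the measured members. Fmo1, Cyp2b10, Cyp2f2 and Cyp4f13 stand below neighbours whose differences are mostly within 0.1 of 0.

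Other genes that supply or work beside these enzymes were taken from 9 lists. The counts of called genes in these lists stand beside 8.0% of all genes called, or 14.9% of all genes above the median level. Among 9 electron donors 1 rose and 1 fell, with a median difference of -0.083. Cyb5r1, a reductase related to the one that supplies cytochrome b5, was 9.48, 9.64, 9.48 and 9.60 with DMSO and 8.45, 8.52 and 8.41 with inhibitor, far apart in every array. It fell by 1.09 (SE 0.051, 2.13-fold lower, adjusted p = 8.47e-05). Fdx2, a mitochondrial ferredoxin, rose by 0.12 (adjusted p = 0.0478), and that call was lost without each of DMSO arrays 1 to 4 and inhibitor arrays 1 and 3 (adjusted p = 0.0736 to 0.146). Por, the reductase that supplies the P450 enzymes of the endoplasmic reticulum, is not analysed here.

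Of 14 genes of haem synthesis and breakdown, 1 rose and 3 fell, with a median of -0.037. Alas1, the first enzyme of haem synthesis, was 10.80 in both groups (difference -0.00, SE 0.025). Slc25a39, a mitochondrial glutathione carrier, fell by 0.36 (SE 0.040, adjusted p = 0.00314), and Abcb10, a mitochondrial transporter, rose by 0.26 (SE 0.027, adjusted p = 0.00247). Hmox1, the haem oxygenase, fell by 0.27, a call lost without DMSO array 1 and inhibitor array 1 together (adjusted p = 0.079). Blvrb, a biliverdin reductase, fell by 0.40 (adjusted p = 0.0161), a call lost without DMSO array 2 or 4 or inhibitor array 2 or 3 (adjusted p = 0.0538 to 0.0718).

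None of the 7 genes of the aryl hydrocarbon receptor pathway was called in limma, and 1 was higher and 1 lower at an unadjusted p under 0.05. Ahr was 5.57 with DMSO and 5.52 with inhibitor (adjusted p = 0.40), Nfe2l2 differed by -0.21 (adjusted p = 0.0571, or 0.0479 without DMSO array 3) and Nqo1 by 0.15 (adjusted p = 0.117). Of the 18 alternative fits, Nfe2l2 passed in 7 and Nqo1 in 2. Of 18 nuclear receptors that act on P450 genes, 1 fell and none rose, with a median of 0.0041. This was Ppara, the fatty acid receptor that drives CYP4A genes in liver. It was 5.54, 5.39, 5.26 and 5.38 with DMSO and 4.83, 4.84 and 4.88 with inhibitor. Its difference was -0.54 (SE 0.061, adjusted p = 0.00341).

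Retinoid metabolism and transport held 2 genes that rose and 1 that fell of 15, with a median of 0.018. Rdh11, a retinal reductase, rose from 8.81 to 9.52 (0.71, SE 0.069, adjusted p = 0.0018) and Aldh1a7, an aldehyde dehydrogenase close to the retinal-oxidising Aldh1a1, from 9.90 to 10.57 (0.67, SE 0.054). Both had inhibitor values above all DMSO values. Bco1, which splits beta-carotene, fell by 0.24, a call lost in every fit without 1 array but the one without DMSO array 4 (adjusted p = 0.0614 to 0.0879). Of 18 steroid and oxysterol genes other than P450, 2 rose and none fell, with a median of 0.02. They were Akr1c14 (0.66, adjusted p = 0.0304) and Hsd17b7 (0.31, adjusted p = 0.0195), which reduce steroids. The first lost its call without DMSO array 1, 2 or 3 or inhibitor array 2 or 3 (adjusted p = 0.085 to 0.10), and the second without DMSO array 2 or 3 or inhibitor array 2 or 3 (adjusted p = 0.057 to 0.0797).

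A list of 7 genes held the epoxide hydrolases Ephx1, Ephx2, Ephx3 and Ephx4 and, apart from these, the P450-fold enzymes Ptgis, Tbxas1 and Cyp51. Cyp51 is not among the members. In this list 2 fell and none rose, with a median of -0.11. Ephx1, which opens the epoxides that P450 enzymes make from foreign chemicals, was 10.32, 10.33, 10.29 and 10.29 with DMSO and 9.79, 9.74 and 9.90 with inhibitor, apart on every array. It fell by 0.49 (SE 0.038, 1.41-fold lower, adjusted p = 0.000691). Ephx2, which opens epoxides of fatty acids, fell by 0.20 (adjusted p = 0.0176), a call lost without DMSO array 4 or any 1 of the inhibitor arrays (adjusted p = 0.0528 to 0.072).

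Of 19 other oxidases and dehydrogenases, 3 rose and 3 fell, with a median of 0.0065. Adh7, an alcohol dehydrogenase that also takes retinol, rose from 7.79 to 8.42 (0.63, SE 0.035, adjusted p = 0.000176), while Aldh2, the mitochondrial acetaldehyde dehydrogenase, fell from 11.75 to 11.27 (-0.48, SE 0.039). The carbonyl reductase Cbr3 fell by 0.58 (adjusted p = 0.00235), a call lost without DMSO array 1 and inhibitor array 1 together (adjusted p = 0.0537). Maoa, which oxidises amines, rose by 0.43 (adjusted p = 0.0159), a call lost without DMSO array 2 or inhibitor array 2 or 3 (adjusted p = 0.0561 to 0.0688). Of 21 conjugation enzymes other than glutathione transferases, 1 rose and 1 fell, with a median of -0.0094. Nnmt, which methylates nicotinamide, rose from 10.06 to 10.57 (0.51, SE 0.022, adjusted p = 6.74e-05). Nat1, an acetyltransferase, fell by 0.37 (adjusted p = 0.0481), and its call was lost in every fit without 1 array but the one without DMSO array 4 (adjusted p = 0.0901 to 0.149).

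**Figure D4:**
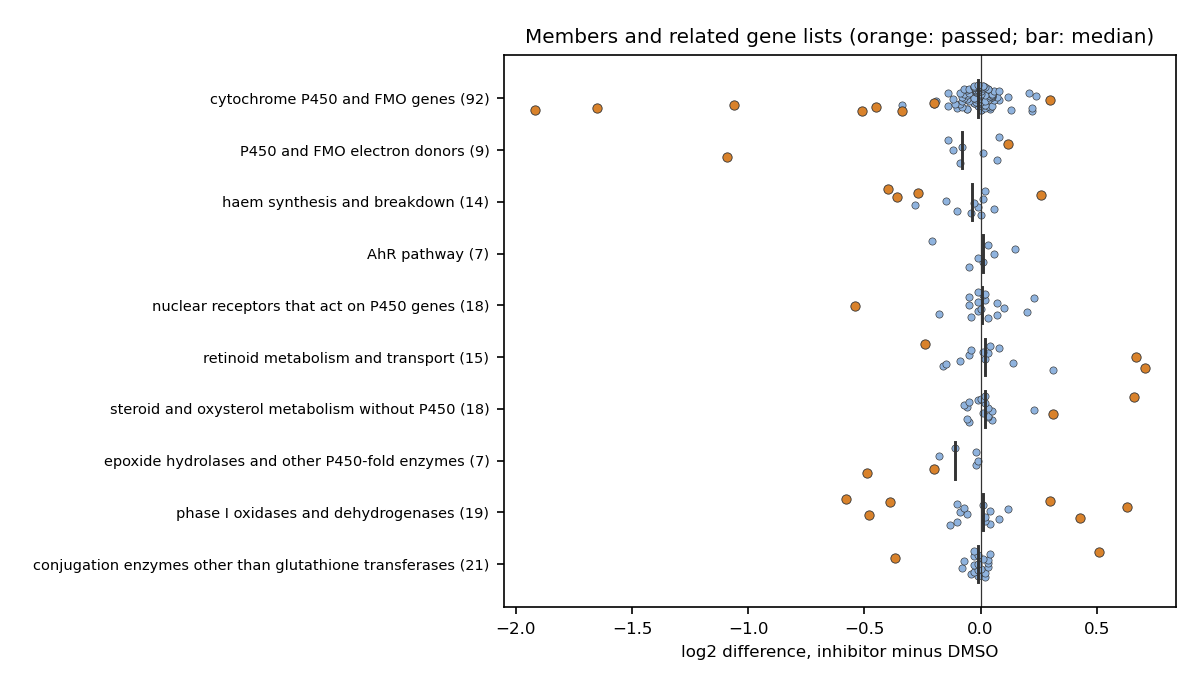
Log2 difference of each gene in the members and in the 9 related lists, with called genes in orange, black bars at the median of each list and the number of genes in parentheses. The medians lie between -0.11 and 0.02, while single genes such as Cyb5r1 (-1.09), Rdh11 (0.71) and Adh7 (0.63) lie apart.

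The calls for Fmo1, Cyp2ab1 and Cyp2f2 held in all 18 alternative fits, with differences of -2.03 to -1.83, -1.74 to -1.56 and -0.54 to -0.49. Cyp1b1 passed in 7 of its 18 and Cyp2j9 in 3.

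**Figure D5:**
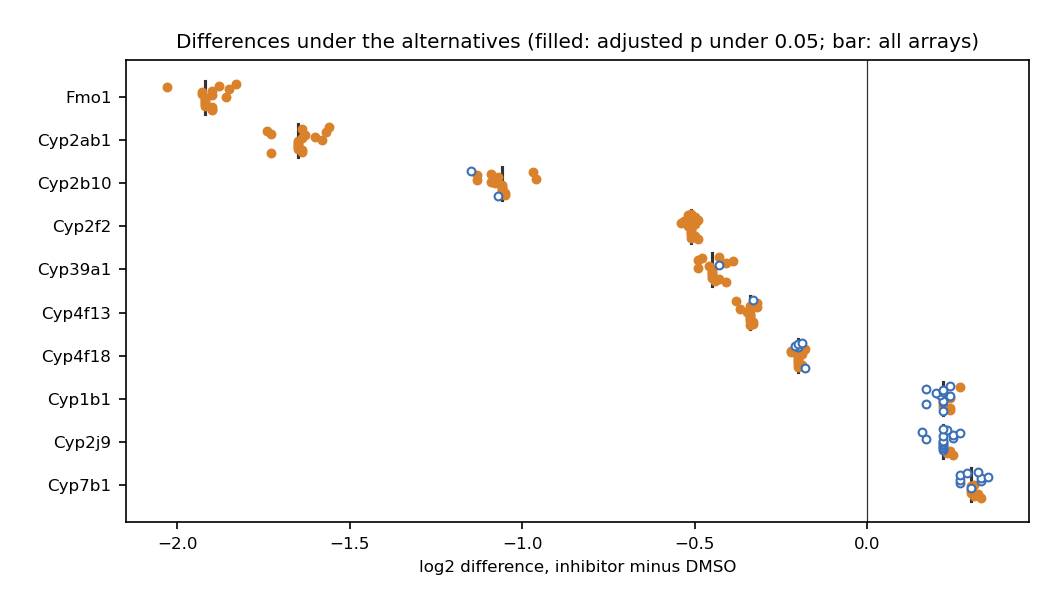
Log2 difference of 10 members under each alternative fit, with filled points where the adjusted p was under 0.05, open points where it was not, and black bars at the value over all arrays. Fmo1, Cyp2ab1 and Cyp2f2 are filled throughout, and Cyp7b1, Cyp1b1 and Cyp2j9 are a mix of filled and open points at like differences.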

How the data were processed

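Gene expression was measured on 7 Affymetrix whole-transcript arrays of 3T3-L1 cells, 4 with DMSO and 3 with the SCD inhibitor. The values deposited by the authors are log2 expression levels, and the submitters' processing notes name RMA as the method. RMA corrects background, brings arrays to a common distribution and summarises probes, and it can compress changes at dim levels. The RMA version and annotation release were not given in the sources used here. That the scale is log2 follows from the range of the values, 2.23 to 13.25. Of 28996 rows, 21218 had 1 gene symbol, 1881 several and 5897 none. The number of arrays limits the precision.

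All 18820 genes entered 1 limma fit (version 3.58.1, lmFit and eBayes, R 4.3.3) with a term for the inhibitor, without a filter on dim genes. Residual degrees of freedom were 5, prior degrees of freedom 1.68, and the median SE of a difference was 0.0393. Arrays of a group correlated at 0.99902 to 0.99948 and arrays of different groups at 0.99684 to 0.9975. The fit was checked on simulated data. Members and lists were chosen with earlier results of these data known. Genes were named by a rule: every member above the median level, every called member, the 3 members on either side of that level, up to 4 called genes of each related list or else the 2 with the smallest p, and Ahr and Alas1. Other genes named were chosen after their values were seen. The rule also named Por. Promoter windows came from RefSeq (GRCm38.p6), with 68 of 92 members matched. Alternatives were a replicate block, other normalizations, filters on dim genes, other rows, limma-trend, array weights and leaving out each array. Leaving out both arrays numbered 1 was added after seeing the data, since they had the lowest array weights of their groups.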

Additional observations from a re-analysis of the deposited data

Results flagged for a closer look

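Among 42 named genes, the DMSO values of 4 had a highest array whose gap to the next one took up most of the range of its group, past the limit of Dixon's test. About 1 in 20 groups would pass by chance. Cyp2c70 was 6.47 on DMSO array 4, and its next value was 6.25. The steroid reductase Akr1c14 was 5.41 on DMSO array 4 and 5.09 on the next. Nat1 was 4.04 on DMSO array 4 and 3.73 on the next. Cyp2u1 was 7.67 on DMSO array 1, where the whole range of the group was only 0.00879.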

How the results depend on the processing

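The median difference of the members moved by less than the spread between replicates in every alternative run for it. That spread was the SD over arrays, within groups, of the median level of the members. The median difference ran from -0.022 to 0.0023, so its sign was not fixed, and it was above 0 with arrays centred on their median. No named call reversed. The count of members called lower, 7, was 9 with quantile normalization, 9 with arrays centred on their median and 8 with the dimmest 25% of genes dropped. It was 4 without both arrays numbered 1 (6 to 7 without any 1 array). With the dimmest 50% of genes dropped it was 4, because the other 3 lay at or below the median level and were not tested. The 4 that were tested kept their calls. The count called higher, 1, was 4 with quantile normalization, 4 with arrays centred on their median, 3 with limma-trend, 3 with array weights, 2 with the dimmest 25% of genes dropped, 0 with all rows tested and 0 without both arrays numbered 1 (0 to 1 without any 1 array). The gene called higher was Cyp7b1 in the main fit. It was Cyp1b1 instead without inhibitor array 3 and with the dimmest 50% of genes dropped, where Cyp7b1 was not tested. All genes called, 1505, were 2326 with arrays centred, 808 without both arrays numbered 1, and 949 to 1294 without any 1 array. With a replicate block, 896 genes were called, with 2 members higher and 6 lower. Cyp2b10 (adjusted p = 0.0778) and Cyp4f18 (adjusted p = 0.0862) lost their calls there, and Fmo4 (lower) and Cyp2j9 (higher) gained one. Of the other named genes, Ppara (adjusted p = 0.0531), Cbr3 (0.0561), Ephx2 (0.0925), Maoa (0.0959), Fdx2 (0.0967) and Hsd17b7 (0.116) lost theirs with the block and Nfe2l2 (0.0405) gained one. Same-numbered arrays correlated at 0.174, 0.138 and 0.08 in their deviations from the group means. Of the pairs with unlike numbers, inhibitor array 2 with DMSO array 4 correlated at 0.16, and all others were negative (-0.171 to -0.008). These values do not settle whether the numbers pair the samples, and the main fit took the samples as unpaired. Of the related lists, electron donors had 2 genes lower without inhibitor array 2, nuclear receptors 2 lower without inhibitor array 3, and steroid and oxysterol genes 1 lower without inhibitor array 2 or 3. The cause of these shifts was not tested. Most members are dim, and signal over background was not analysed here.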
